A study of Mus musculus with 8 samples.

Results

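Folate-bound one-carbon metabolism was examined in mouse liver through 32 listed genes for folate uptake and retention, the folate enzymes of cytosol and mitochondria, glycine cleavage, choline and sarcosine breakdown, serine synthesis and threonine breakdown. A gene was measured where a probe set of the array carried exactly 1 gene symbol and that symbol was on the list, which held for 29 of the 32, among 18193 genes measured this way in all. Amt and Tdh had no such probe set, and the 3 probe sets of Gcat were shared with a second gene. The livers came from 4 mice labelled MTAP+/- (heterozygous) and 4 labelled MTAP+/+ (wild-type). All 8 animals were males of strain C57BL/6, aged 92 to 101 days, and 1 array was run per liver. The labels name no treatment, diet, litter or collection time, and how the altered Mtap allele was made is not given in the sources used here. Mtap encodes methylthioadenosine phosphorylase, which salvages methionine and adenine from a by-product of polyamine synthesis, and the comparison asks which transcripts differ when 1 copy is altered.

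Folates carry single carbon units at several oxidation states between amino acids, nucleotides and methionine. Serine is the main donor in most cells, while liver also draws on glycine, choline, sarcosine and histidine, and holds much of the body's folate as polyglutamates. The pathway meets the methionine cycle where methyl-folate and betaine remethylate homocysteine.

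All values are log2 signals made by the authors with RMA (robust multi-array average), and each change is heterozygous minus wild-type on that scale. Array medians lay between 3.92 and 3.98. The probe set of highest mean signal stood for each gene, and p-values come from limma, adjusted over all genes. Of the 29 genes, 6 had a mean signal below every array median (Folr1, Tyms, Mthfs, Mthfd1l, Aldh1l2 and Psat1), and without detection calls these signals do not show expression. Mtap, as a check of the labels, had signals of 6.72, 6.92, 6.99 and 6.95 in heterozygous livers against 7.82, 7.57, 7.69 and 7.69 in wild-type livers (log2 change -0.80, adjusted p = 0.0281). The hepatocyte markers Alb, Ttr, Apoa1 and Cps1 were between 13.0 and 14.5 in every liver.

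No one-carbon gene passed an adjusted p of 0.05 (0 of 29, against 0.0495% of all genes, 9 of 18193), and the lowest adjusted p among them was 0.234. At an unadjusted p under 0.05 there were 5 lower genes, Fpgs, Dmgdh, Gldc, Shmt2 and Shmt1 (background 4.74%), and 1 higher, Slc25a32 (background 4.4%). For the first 4 of these, every heterozygous liver lay below every wild-type liver (4 of 29, where 2.7% of all genes did so). No gene of the list was higher in every heterozygous liver (background 1.95%). The median change over the 29 genes was -0.06, beside -0.02 over all genes, and 18 of 29 changes were below 0, beside 54.7% of all genes. In bulk liver, fewer cells of a type and less RNA per cell cannot be told apart. The genes were chosen with earlier results on these arrays known, so the counts are a description. Fpgs, Dmgdh, Gldc and Shmt2 kept an unadjusted p under 0.05 under all 15 alternatives run, with a lowest adjusted p of 0.105 for any listed gene. With 1 array left out, the count of lower genes lay between 4 and 8, with 8 without heterozygous replicate 2. That of higher genes lay between 0 and 3, with 3 without heterozygous replicate 2. It was 0 without any 1 of heterozygous replicates 1, 3 and 4 and wild-type replicates 1 and 2. Without heterozygous replicate 2, 6.3% of all genes were lower and 5.9% higher at an unadjusted limma p under 0.05. That share was not computed for the other alternatives.

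**Figure D1:**
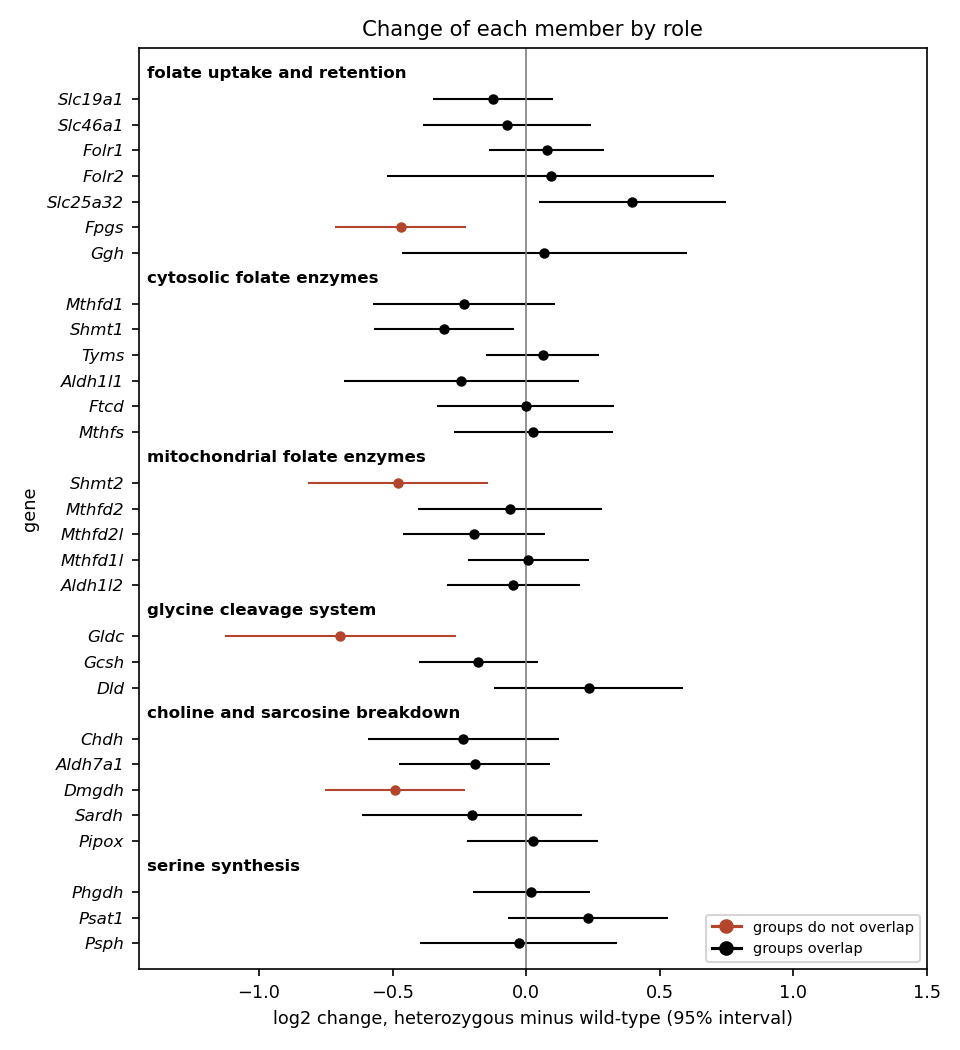
The log2 change of each of the 29 genes is plotted as heterozygous minus wild-type with its 95% interval from limma (n = 4 livers per genotype), grouped by role. The 4 genes in red, Fpgs, Shmt2, Gldc and Dmgdh, are those with every heterozygous liver below every wild-type liver, with changes from -0.70 to -0.47.

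Among genes that bring folate into the cell and keep it there, Fpgs and Slc25a32 stood at opposite ends. Fpgs encodes folylpolyglutamate synthase, which adds the glutamate tail that retains folate in cytosol and mitochondria. Its signals were 8.43, 8.64, 8.83 and 8.67 in heterozygous livers against 9.24, 9.00, 9.17 and 9.05 in wild-type livers. The groups did not overlap, and the highest heterozygous liver lay 0.17 below the lowest wild-type liver. The change was -0.47 ± 0.11 (SE), a level of 72.2% of wild-type (95% interval 61.0 to 85.5%), with an unadjusted p of 0.00143 and an adjusted p of 0.234. It stayed between -0.53 and -0.40 with any single array left out.

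Slc25a32, the carrier of the inner membrane that moves folate into mitochondria, had signals of 6.06, 5.49, 5.81 and 5.96 in heterozygous livers against 5.16, 5.27, 5.70 and 5.62 in wild-type livers. Heterozygous replicate 2 lay within the wild-type range and the other 3 lay above it. The change was 0.40 ± 0.16 (SE, adjusted p = 0.470). Its other probe sets, with mean signals of 4.03 and 3.13, changed by 0.07 and 0.25.

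Ggh encodes gamma-glutamyl hydrolase, which removes the glutamate tail that Fpgs adds, and is the one listed gene on chromosome 4, the chromosome of Mtap. Its signals were 7.24, 6.22, 7.25 and 7.51 in heterozygous livers against 6.86, 6.75, 7.21 and 7.13 in wild-type livers. Heterozygous replicate 2 was the lowest of all 8 livers and the other 3 heterozygous livers were the highest 3, so that the mean change was 0.07 (95% interval -0.46 to 0.60). Folr2, a folate receptor that marks some tissue macrophages, had the same arrangement at the low end, with 7.17, 6.11, 7.27 and 7.62 in heterozygous livers against 7.33, 6.64, 6.92 and 6.88 in wild-type livers (change 0.09, 95% interval -0.52 to 0.70). The 8 macrophage markers split in heterozygous replicate 2. Clec4f (7.06) and Vsig4 (8.20) were at their lowest there, against 8.85 to 9.45 and 9.02 to 9.98 in the other 7 livers. Cd5l (11.29), Adgre1 (8.93), Marco (9.97), Cd68 (7.41) and Timd4 (5.98) were at their highest of all 8 livers there, and Csf1r (10.06) was at neither end. The part of macrophage content in the Folr2 and Ggh values was not tested.

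The plasma membrane carriers differed little between genotypes. Slc19a1, the reduced folate carrier, changed by -0.12 (95% interval -0.35 to 0.10) and Slc46a1, the proton-coupled folate transporter, by -0.07 (-0.39 to 0.24). Folr1, the folate receptor alpha, was near the floor of the arrays, between 2.88 and 3.18 in all 8 livers.

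In the cytosolic set, 1 of 6 genes had an unadjusted limma p under 0.05, on the lower side (background 4.74%). Shmt1, the cytosolic serine hydroxymethyltransferase that interconverts serine and glycine, had signals of 9.43, 9.44, 9.75 and 9.36 in heterozygous livers against 9.94, 9.92, 9.67 and 9.69 in wild-type livers. Heterozygous replicate 3 alone lay within the wild-type range. The change was -0.31 ± 0.12 (SE, adjusted p = 0.459), and the other 3 probe sets of Shmt1 changed by -0.32, -0.11 and -0.43. Their unadjusted limma p-values were 0.0315, 0.426 and 0.0237 (3.85% of probe sets overall were lower at p under 0.05). On the probe set at -0.32 the groups did not overlap.

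Mthfd1, the trifunctional enzyme that interconverts formyl-, methenyl- and methylene-folate, had signals of 9.53, 10.26, 9.57 and 9.76 in heterozygous livers against 10.11, 10.08, 9.92 and 9.95 in wild-type livers. Aldh1l1, which oxidises formyl-folate to carbon dioxide and is abundant in hepatocytes, had 11.48, 12.53, 11.77 and 11.67 in heterozygous livers against 12.19, 11.91, 12.25 and 12.08 in wild-type livers. In both genes 3 heterozygous livers lay below all wild-type livers and heterozygous replicate 2 lay above them all, and the changes over all arrays were -0.23 ± 0.15 and -0.24 ± 0.20 (SE). A second, dimmer probe set of Aldh1l1 (mean signal 5.30) changed by -0.59 ± 0.21, with an unadjusted p of 0.0175 (adjusted p = 0.480 over the probe sets).

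Ftcd, which takes the one-carbon group from histidine breakdown onto folate, averaged 11.49 ± 0.30 in heterozygous and 11.49 ± 0.15 in wild-type livers (SD, n = 4 each), and the 95% interval of the change ran from -0.33 to 0.33. Its highest value of all, 11.92, was in heterozygous replicate 2. Mthfs, which returns 5-formyl-folate to the active pool, changed by 0.03 at a mean signal of 3.27. Tyms, the thymidylate synthase of dividing cells, lay between 2.61 and 2.87 in all 8 livers on its brightest probe set.

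In the mitochondrial set Shmt2 stood apart from the other 4 genes. Shmt2 encodes the mitochondrial serine hydroxymethyltransferase, the enzyme through which serine supplies most mitochondrial one-carbon units. Its signals were 9.67, 10.08, 10.03 and 9.41 in heterozygous livers against 10.48, 10.25, 10.20 and 10.19 in wild-type livers. The groups did not overlap, with a gap of 0.11 between them, and heterozygous replicates 1 and 4 were lowest. The change was -0.48 ± 0.15 (SE), a level of 71.7% of wild-type (95% interval 56.8 to 90.6%), with an unadjusted p of 0.00959 and an adjusted p of 0.355. Changes on the 4 Shmt2 probe sets were of similar size, at -0.48, -0.45, -0.43 and -0.38. Each of them reached an unadjusted p under 0.05, where 3.85% of probe sets overall were lower at that level. They measure the same transcript in the same livers, and 3 of them carry the suffix for probes that can cross-hybridise, whereas the one at -0.45 does not.

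The dehydrogenases and synthetase downstream of Shmt2 were dim. Mthfd2, the mitochondrial methylene-folate dehydrogenase of growing cells, was at 4.41, 4.89, 4.81 and 4.84 in heterozygous livers against 5.20, 4.65, 4.73 and 4.60 in wild-type livers (change -0.06, 95% interval -0.41 to 0.28). Its relative Mthfd2l, expressed in adult tissues, changed by -0.20 (-0.46 to 0.07). Mthfd1l, which releases formate for export to the cytosol, changed by 0.01 and Aldh1l2, the mitochondrial formyl-folate dehydrogenase, by -0.05, both at mean signals below the array medians.

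**Figure D2:**
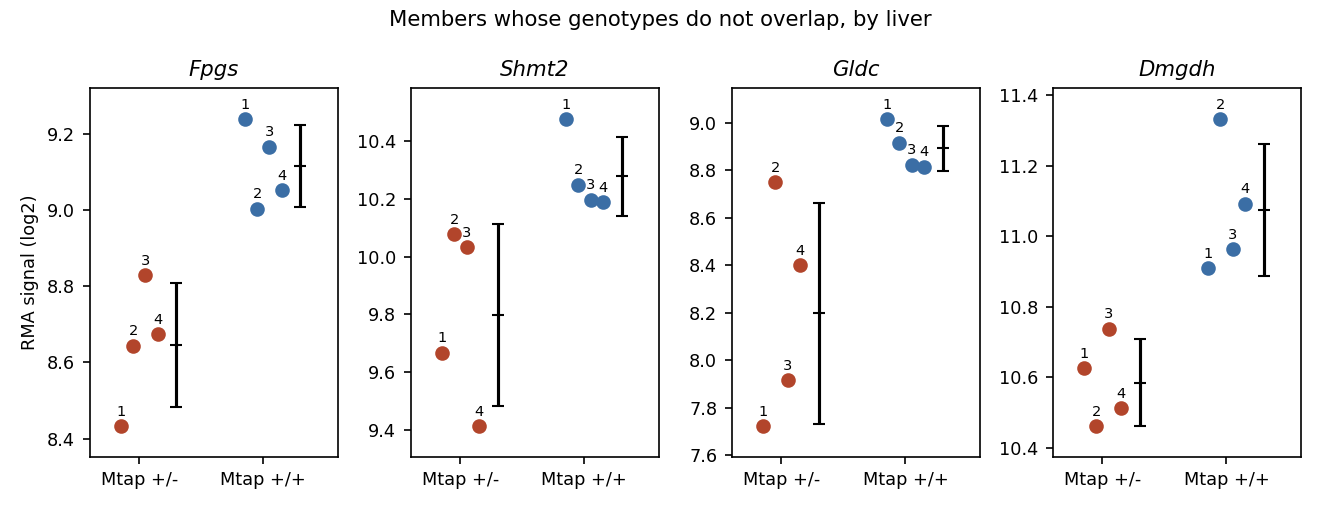
RMA log2 signals of Fpgs, Shmt2, Gldc and Dmgdh are plotted for each liver, heterozygous in red on the left and wild-type in blue on the right, with replicate numbers beside the points and bars for mean ± SD (n = 4 each). The axes do not start at 0, and within each panel the red points all lie below the blue points.

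The glycine cleavage system breaks glycine down in mitochondria and passes its carbon to folate. Gldc, its decarboxylating P protein, had the change of greatest size among the 29 genes. Gldc signals were 7.72, 8.75, 7.92 and 8.40 in heterozygous livers against 9.02, 8.92, 8.82 and 8.81 in wild-type livers. The wild-type livers lay close together (SD 0.09) and the heterozygous livers were spread more widely (SD 0.47), with replicate 2 only 0.06 below the lowest wild-type liver. The change was -0.70 ± 0.20 (SE), a level of 61.7% of wild-type (95% interval 45.8 to 83.3%), with an unadjusted p of 0.00464 and an adjusted p of 0.310. It was -0.88 without heterozygous replicate 2 and -0.54 without heterozygous replicate 1.

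The measured partners of Gldc did not share a change of that size, and Amt, the other listed partner, was not measured. Gcsh, the lipoyl-bearing H protein, had signals of 9.63, 9.93, 9.81 and 9.88 in heterozygous livers against 10.05, 10.08, 9.93 and 9.91 in wild-type livers, so the groups touched within 0.02 (change -0.18 ± 0.10 SE, adjusted p = 0.643). Dld, the dihydrolipoamide dehydrogenase that this system shares with the 2-oxoacid dehydrogenases, was at 8.34, 8.27, 8.71 and 8.56 in heterozygous livers against 7.77, 8.37, 8.37 and 8.42 in wild-type livers. Wild-type replicate 1 was the low value, and the Dld change of 0.23 ± 0.16 (SE) became 0.08 without it.

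Choline reaches the folate pool through betaine, dimethylglycine and sarcosine. Dmgdh, the mitochondrial dehydrogenase that demethylates dimethylglycine onto folate, had signals of 10.62, 10.46, 10.74 and 10.51 in heterozygous livers against 10.91, 11.33, 10.96 and 11.09 in wild-type livers. The groups did not overlap (gap 0.17), and the heterozygous livers lay within 0.28 of each other. The change was -0.49 ± 0.12 (SE), a level of 71.1% of wild-type (95% interval 59.4 to 85.2%), with an unadjusted p of 0.00166 and an adjusted p of 0.234, and it lay between -0.55 and -0.41 when any 1 array was left out.

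The other 4 listed genes of choline and sarcosine breakdown showed smaller changes, with overlapping groups. Chdh, which oxidises choline, was at 10.35, 10.49, 10.36 and 10.15 in heterozygous livers against 10.72, 11.00, 10.31 and 10.27 in wild-type livers (change -0.23 ± 0.16 SE, adjusted p = 0.720). Aldh7a1, an aldehyde dehydrogenase that can form betaine and also acts in lysine breakdown, changed by -0.19 ± 0.13. Sardh, which demethylates sarcosine, changed by -0.20 ± 0.19, and its second probe set by -0.28. Pipox, a peroxisomal enzyme that oxidises sarcosine and pipecolate, was level at 10.75 ± 0.09 in heterozygous and 10.72 ± 0.18 in wild-type livers (SD, n = 4 each), with a 95% interval of -0.22 to 0.27 for the change.

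The 250 bases before the annotated transcription start of the 4 genes with separated groups are printed to show their proximal promoter sequence and the motif matches in it. Sequences are from the RefSeq annotation of GRCm38.p6, given 5′ to 3′ on the strand of the gene, which matched 26 of the 32 listed genes. The regions are chr2:32694176-32694425 (minus strand) for Fpgs, chr10:127522445-127522694 (minus) for Shmt2, chr19:30175442-30175691 (minus) for Gldc and chr13:93674186-93674435 (plus) for Dmgdh. Capitals mark matches on either strand to GGGCGG, the core of the GC box bound by Sp1-type factors, and to CCAAT, the box bound by NF-Y.
Fpgs: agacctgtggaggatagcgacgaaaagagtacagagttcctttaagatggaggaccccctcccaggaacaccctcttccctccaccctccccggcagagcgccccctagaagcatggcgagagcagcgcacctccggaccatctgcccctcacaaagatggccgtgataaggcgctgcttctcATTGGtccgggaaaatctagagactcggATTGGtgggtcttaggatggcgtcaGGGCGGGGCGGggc
Shmt2: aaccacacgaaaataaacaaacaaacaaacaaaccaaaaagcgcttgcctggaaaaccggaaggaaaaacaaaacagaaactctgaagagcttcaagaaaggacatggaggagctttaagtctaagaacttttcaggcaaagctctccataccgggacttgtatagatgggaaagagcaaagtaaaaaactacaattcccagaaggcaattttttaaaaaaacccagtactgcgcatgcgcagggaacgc
Gldc: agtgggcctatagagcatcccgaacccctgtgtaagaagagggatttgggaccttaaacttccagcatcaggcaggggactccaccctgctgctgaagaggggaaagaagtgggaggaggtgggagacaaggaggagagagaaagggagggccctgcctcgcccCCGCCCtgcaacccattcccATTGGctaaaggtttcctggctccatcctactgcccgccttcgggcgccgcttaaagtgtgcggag
Dmgdh: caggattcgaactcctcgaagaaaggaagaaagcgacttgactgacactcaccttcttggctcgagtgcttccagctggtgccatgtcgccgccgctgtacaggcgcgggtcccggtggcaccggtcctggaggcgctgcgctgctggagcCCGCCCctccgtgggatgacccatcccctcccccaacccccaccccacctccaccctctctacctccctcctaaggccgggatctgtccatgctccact

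The Fpgs window held 2 GC boxes, which share 1 base with each other and none with its 2 CCAAT matches, the Gldc window held 1 of each, the Dmgdh window 1 GC box and the Shmt2 window neither. GGGCGG was found in 32.7% and CCAAT in 33.8% of 32851 annotated promoter windows of that length. The Shmt2 window was also the poorest in G and C (40.8%, against 59.6 to 64.8% in the other 3 and a median of 52.4% over all windows). TATAAA (12.4% of all windows), the E-box CACGTG (6.02%) and TTNCATCA (3.45%), the element read by ATF4-type factors, had no match in these 4 windows, which says only that the letters are not in them.

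Serine synthesis showed no difference between genotypes larger than the spread of the livers. Phgdh, which commits glycolytic 3-phosphoglycerate to serine, was at 6.98, 6.99, 6.92 and 7.02 in heterozygous livers against 6.90, 6.80, 7.11 and 7.02 in wild-type livers (change 0.02, 95% interval -0.20 to 0.24). All 4 Phgdh probe sets are of a cross-hybridising kind, and 2 further ones are annotated to Phgdh together with a second gene. Psph, the last step of serine synthesis, changed by -0.03 (-0.40 to 0.34). Psat1, the transaminase between them, was near the floor, with 3.01, 3.44, 2.94 and 2.83 in heterozygous livers against 2.76, 2.70, 2.92 and 2.90 in wild-type livers, and heterozygous replicate 2 was its highest value.

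Heterozygous replicate 2 stood apart from the other livers. Over all genes its root mean square deviation from the mean of its genotype was 0.262, against 0.174 to 0.228 in the other 7 livers, and over the 29 genes it was 0.362, against 0.132 to 0.205. It held the highest heterozygous value for 13 of the 29 genes and the lowest for 9. Each of the other 7 livers was the highest of its genotype for 3 to 12 genes and the lowest for 2 to 12. Without this liver, limma still called 0 of the 29 (13 of 18193 genes, 0.0715%), with a lowest adjusted p of 0.105 for Gldc.

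With 3 heterozygous livers left, 8 genes lay below all wild-type livers (background 6.2%) and 2 above them (background 5.26%). To Fpgs, Shmt2, Gldc and Dmgdh were added Aldh1l1 (change -0.47, against -0.24 with all livers), Mthfd1 (-0.39, against -0.23), Aldh7a1 (-0.31, against -0.19) and Gcsh (-0.22, against -0.18), and the 2 higher were Slc25a32 (0.51, against 0.40) and Ggh (0.35, against 0.07). At an unadjusted p under 0.05 there were 8 lower genes (background 6.3%) and 3 higher (background 5.9%), which were Slc25a32, Ggh and, at 0.40, Folr2. Shmt1 had an unadjusted p of 0.0505 in that fit. The median change of the list was -0.09, beside -0.01 over all genes. This liver was singled out by values that include those of the listed genes. With any other array left out, 4 or 5 listed genes were separated on the lower side and 0 or 1 on the higher side. Leaving out an array cannot make separated groups overlap, so Fpgs, Shmt2, Gldc and Dmgdh had to remain separated. The share over all genes was not computed for these other fits.

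**Figure D3:**
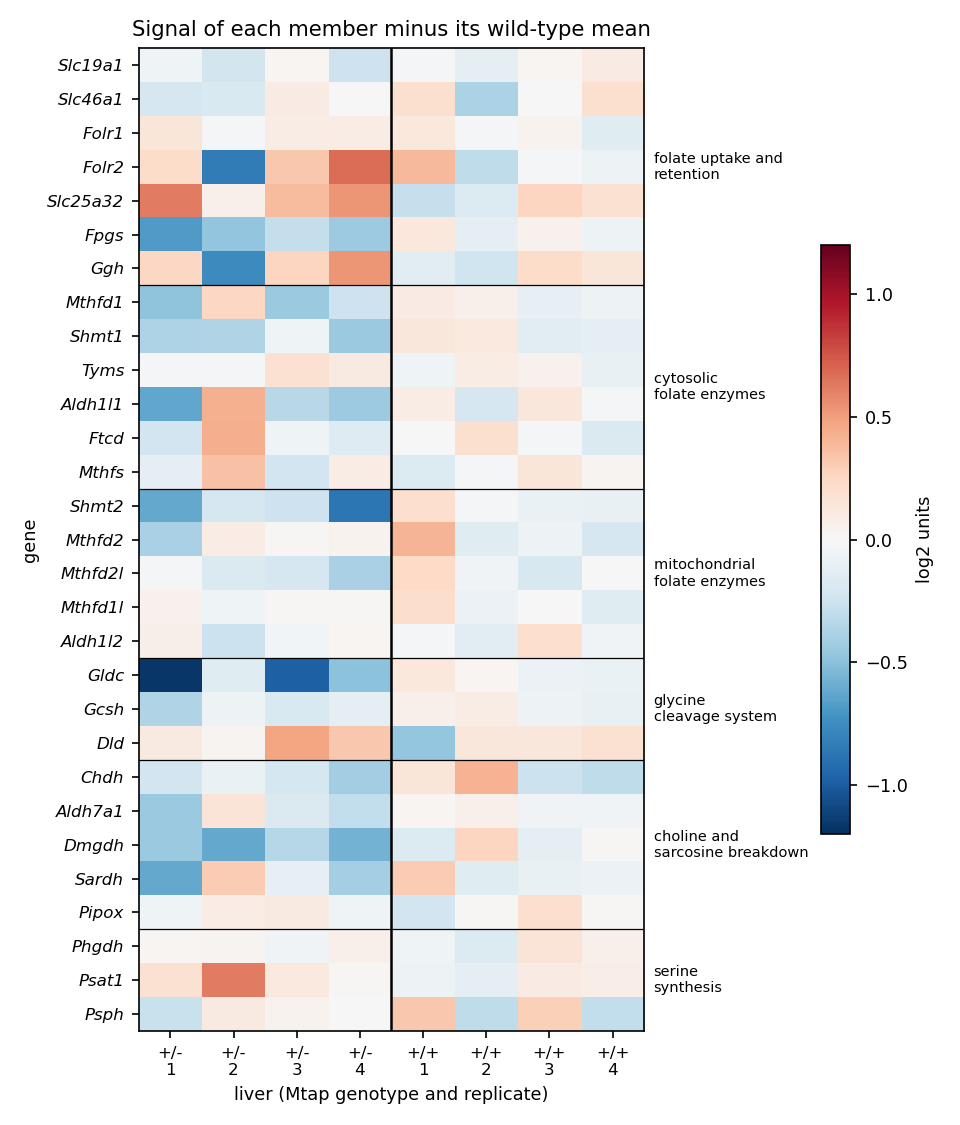
Each cell is the log2 signal of a gene (row, grouped by role) in a liver (column, heterozygous replicates on the left of the line and wild-type on the right) minus the wild-type mean of that gene, from blue (lower) to red (higher). Fpgs, Shmt2, Gldc and Dmgdh are below 0 in all 4 heterozygous livers, as are Shmt1, Mthfd2l, Gcsh and Chdh. Heterozygous replicate 2 is red for Psat1, Ftcd, Aldh1l1, Mthfs, Sardh and Mthfd1. It is blue for Folr2, Ggh, Dmgdh, Fpgs, Shmt1 and Aldh1l2, and paler for the other genes.

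**Figure D4:**
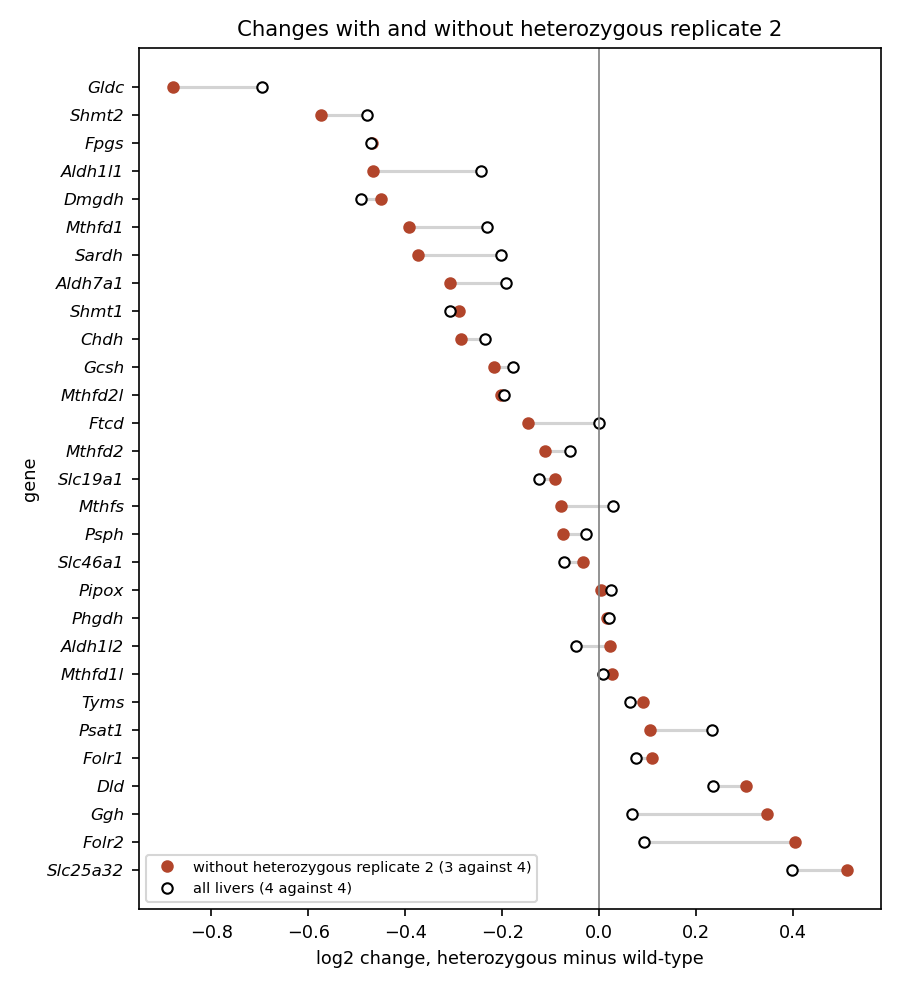
The log2 change of each gene (heterozygous minus wild-type) is plotted with all 8 livers (open circles) and without heterozygous replicate 2 (filled circles). The largest moves are those of Folr2 (0.40 against 0.09), Ggh (0.35 against 0.07) and Aldh1l1 (-0.47 against -0.24).

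Of the 29 genes, 15 were measured by more than 1 probe set. Sardh changed by -0.20 and -0.28 on its pair of probe sets, and Mthfd1 by -0.23, -0.29 and -0.17 on its 3. Probe sets of 1 gene differed in sign for Slc19a1, Mthfd2l, Phgdh and Psat1, where the values lay between -0.20 and 0.23 and none had an unadjusted p under 0.05.

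**Figure D5:**
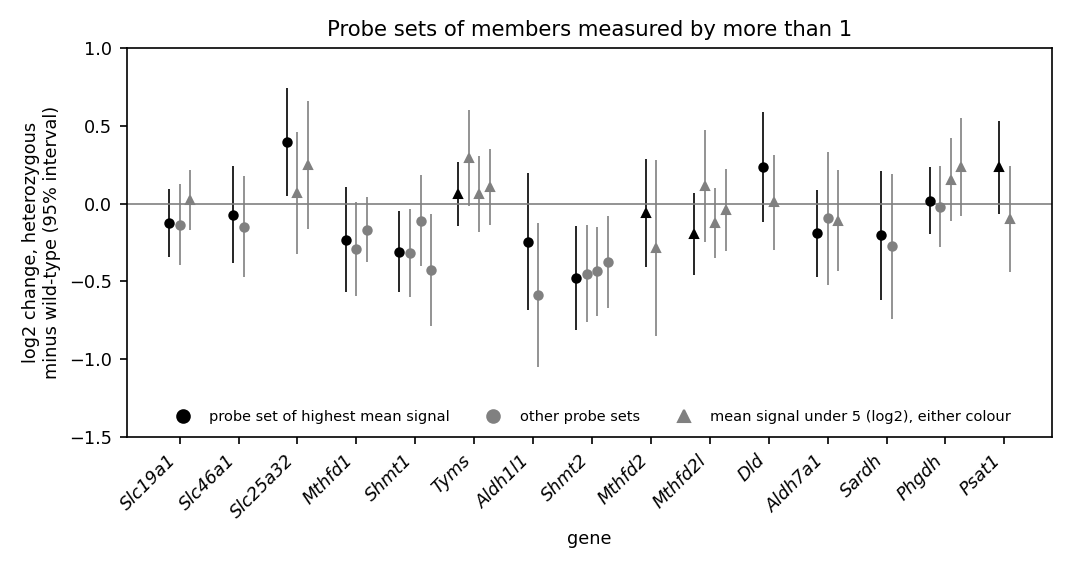
Log2 changes (heterozygous minus wild-type) with 95% intervals from limma are plotted for every probe set of the 15 genes measured by more than 1, the brightest in black and the others in grey, with triangles for probe sets of mean signal under 5. All 4 Shmt2 probe sets lie below 0, from -0.48 to -0.38.

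Enzymes that hand one-carbon units to or take them from this pathway were listed separately, and 0 of 12 measured passed the adjusted threshold, with 2 lower at an unadjusted p under 0.05 (background 4.74%). The one with separated groups was Bhmt (2.7% of all genes were separated on the lower side). It remethylates homocysteine with betaine and so makes the substrate of Dmgdh. Bhmt signals were 13.54, 13.47, 13.58 and 13.35 in heterozygous livers against 13.88, 14.01, 14.01 and 13.75 in wild-type livers (change -0.43 ± 0.10 SE, adjusted p = 0.234). Its homologue Bhmt2 changed by -0.40 ± 0.15 (adjusted p = 0.451) and Mtrr, which keeps methionine synthase active, by -0.29 ± 0.16. The median change of these 12 genes was -0.12.

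Of 12 serine and glycine neighbours 0 had an unadjusted p under 0.05, and the smallest p values belonged to Slc25a38, a mitochondrial glycine carrier (-0.27), Grhpr (-0.16) and Cbs (0.28). Of 13 lipoyl and flavin partners of the glycine and choline enzymes 2 were lower at that level (background 4.74%). Etfb is a subunit of the flavoprotein that takes electrons from Dmgdh and Sardh. Its signals were 11.38, 11.34, 11.33 and 11.22 in heterozygous livers against 12.08, 11.99, 11.57 and 11.50 in wild-type livers. The groups did not overlap (2.7% of all genes were separated on the lower side), and Etfb changed by -0.47 ± 0.14 (SE, adjusted p = 0.336). Its partner subunit Etfa and the acceptor Etfdh changed by 0.00 and 0.03. Lipt1, a lipoyl transferase, changed by -0.31 and Dlst by -0.15.

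Genes of the ATF4 amino acid response, which in other settings includes Shmt2, Phgdh, Psat1 and Mthfd2, had a median change of -0.08 over 15 measured genes, with 0 past the adjusted threshold and 2 lower at an unadjusted p under 0.05 (background 4.74%). Those were Aars, a tRNA synthetase (-0.42 ± 0.12 SE, adjusted p = 0.335), and Sesn2 (-0.26). Asns, asparagine synthetase, varied most, with 5.49, 7.14, 5.54 and 6.89 in heterozygous livers against 5.73, 4.70, 5.20 and 6.09 in wild-type livers.

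Marker lists of other liver features were set beside these values. Summed log2 signals of 7 pericentral markers were 64.9 to 65.7 in heterozygous and 66.6 to 68.4 in wild-type livers. Of these, 4 of 7 were lower at an unadjusted limma p under 0.05 (background 4.74%). Glul, the defining one, changed by -0.21 (adjusted p = 0.723), and Oat and Cyp2e1 by 0.06 and 0.01. Summed signals of 5 periportal markers were 49.5 to 52.2 in heterozygous and 49.6 to 51.5 in wild-type livers. Summed signals of 8 macrophage markers were 62.4 to 68.9 in heterozygous and 61.3 to 63.9 in wild-type livers, with 4 of 8 higher at an unadjusted p under 0.05 (background 4.4%). Those of 5 lymphocyte markers were 21.9 to 22.3 in heterozygous and 21.2 to 21.7 in wild-type livers. All 5 were dim, with mean signals under 5 in both genotypes. Nkg7, Cd79a and Ms4a1 changed by 0.32, 0.22 and 0.15. The T cell markers Cd3e and Cd8a changed by 0.01 and -0.10, with values between 4.63 and 5.04 in all 8 livers. The clock gene Arntl, picked after its values were seen, was at 4.82, 5.56, 4.98 and 5.93 in heterozygous livers against 7.18, 7.05, 6.82 and 6.28 in wild-type livers. The part of liver zone, immune cell content or time of day in the one-carbon values was not tested.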

How the data were processed

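Liver RNA of 8 mice was isolated with TRIzol, labelled with biotin and hybridised to Affymetrix mouse arrays, per the labels' protocols. The authors deposited RMA values, per the submitters' processing notes, and these were taken as log2 signals from their range (1.64 to 14.7). No source used here gives the RMA version or settings. RMA narrows differences of dim transcripts. The number of arrays limits the precision, and p-values treat the livers as independent.

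Of 45101 probe sets 64 controls were left out. The platform annotation gave 1 symbol to 34945 of the other 45037, several to 932 and none to 9160. Each of 18193 genes was represented by its probe set of highest mean. The genotype effect was fitted in limma 3.58.1 (a two-sided moderated test with no other term) under R 4.3.3, adjusted by Benjamini-Hochberg over all genes, with a threshold of 0.05. The test was checked on simulated data.

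The listed genes, the comparison lists and the tests were chosen with earlier results of these data known. Named were all measured listed genes, up to 3 genes of smallest p per comparison list, and Mtap. Etfa, Etfdh, Arntl and single cell type markers were named after their values were seen. Alternatives covered the choice of probe set, a filter on dim genes, eBayes settings, array weights, renewed quantile normalisation, the replicate number as a block and each array left out. The replicate numbers are not said to pair the livers. Correlations of same-numbered deviations were -0.10 to 0.15. They cannot decide whether animals were paired, since no differently numbered livers were set beside them.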

Additional observations from a re-analysis of the deposited data

Results flagged for a closer look

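Of 58 sets of 4 livers examined (29 genes in 2 genotypes), 2 held a liver far from the other 3, and chance flags about 1 set in 20. Wild-type replicate 1 was low for Dld, at 7.77 against 8.37 to 8.42 in the other wild-type livers. The same liver was high for Sardh, at 10.2 against 9.74 to 9.81.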

How the results depend on the processing

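The call of 0 of 29 genes past the adjusted threshold held under all 15 alternatives (7 settings and each of the 8 arrays left out). The fit with a replicate block also gave 0, with 5 lower and 1 higher at an unadjusted p under 0.05. It called 6 genes over all genes, and the share of all genes at that unadjusted p was not computed for it. Over all genes, 9 were called, against 4 when probe sets were averaged per gene, 4 without genes of mean signal under 5, and 3 (without heterozygous replicate 1) to 20 (without wild-type replicate 4) with 1 array left out, with 5, 4 and 5 without wild-type replicates 1, 2 and 3. With probe sets averaged, 1 gene, the dim Tyms, was higher in every heterozygous liver, and 0 were higher at an unadjusted p under 0.05. The shares of all genes were not computed for that setting. The median change of the list was -0.137 without probe sets of the cross-hybridising kinds and -0.178 without genes of mean signal under 5, which tests fewer genes. With 1 array left out, between 4 and 8 genes were separated on the lower side and between 0 and 2 on the higher side. Those higher were Slc25a32 and Ggh without heterozygous replicate 2 and Psat1 without heterozygous replicate 4. The 4 lower genes separated with all arrays cannot come to overlap when 1 is left out. Without heterozygous replicate 2, 6.2% of all genes were separated lower and 5.26% higher, against 2.7% and 1.95% with all livers. For the other arrays left out this share was not computed.

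Of 420 changes of single genes under the alternatives, 392 kept their direction and 28, in 10 genes with changes between -0.06 and 0.09, turned. Among settings that keep all arrays these were Ftcd (0.0163) and Mthfd1l (-0.00166) with renewed quantile normalisation, and Mthfs (-0.0696), Phgdh (-0.0220) and Pipox (-0.0142) with array weights. With 1 array left out the ranges were -0.0931 to 0.0225 for Aldh1l2, -0.0999 to 0.403 for Folr2, -0.147 to 0.0761 for Ftcd, -0.0844 to 0.345 for Ggh, -0.0401 to 0.0786 for Mthfd1l, -0.128 to 0.0751 for Mthfd2, -0.0797 to 0.112 for Mthfs, -0.0345 to 0.0716 for Phgdh, -0.0522 to 0.0899 for Pipox and -0.131 to 0.0786 for Psph. The cause was not tested for any of these. Signals near the array floor limit Folr1, Tyms, Mthfs, Mthfd1l, Aldh1l2 and Psat1.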

Other observations

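The enzymes of histidine breakdown that act before Ftcd were highest in heterozygous replicate 2. Hal, the first step, was at 10.10, 11.46, 10.34 and 10.66 in heterozygous livers against 10.48, 10.55, 10.93 and 10.70 in wild-type livers. Uroc1, the second step, was at 9.65 in that liver and between 9.08 and 9.54 in the other 7. Amdhd1, the third, was at 10.91 there and between 9.91 and 10.34 elsewhere. The changes between genotypes were -0.02 for Hal and 0.01 for Uroc1, with unadjusted limma p-values of 0.930 and 0.924. These 3 genes were picked after their values were seen.

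Dividing-cell genes varied among the livers. Rrm2, a subunit of ribonucleotide reductase, was at 5.78, 6.38, 5.91 and 5.05 in heterozygous livers against 7.06, 6.08, 7.27 and 5.35 in wild-type livers. Cdk1, a mitotic kinase, averaged 5.27 ± 0.36 in heterozygous livers and 5.55 ± 1.16 in wild-type livers (SD, n = 4 each). Wild-type replicates 1 and 3 were the highest wild-type livers for both. Tk1, thymidine kinase, was at 7.64, 7.72, 7.38 and 7.62 in heterozygous livers against 7.16, 6.75, 7.25 and 7.38 in wild-type livers (change 0.45 ± 0.14 SE, adjusted p = 0.349 by limma).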
